A study of Mus musculus with 11 samples.

Results

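The genes described are the subunits, activators and assembly factors of the proteasome, taken as every row of the deposited CPM table whose symbol begins with Psma to Psmg followed by a digit, with names ending in -ps (pseudogenes) left out. The rule found 48 of the 18269 genes in the table. All 48 had at least 1 CPM (a gene's reads scaled so that each library totals 1000000) in at least 3 libraries, a filter that 13187 genes of the table passed. The 2 pseudogene names left out were Psma5-ps, at 10.8 to 14.7 CPM, and Psmb6-ps2, below 1 CPM in every library. By role the 48 fall into the alpha ring (7), the constitutive beta ring (7), the inducible beta subunits of the immunoproteasome (3), the ATPases (6) and the non-ATPase subunits (11) of the regulatory particle, its chaperones (3), the interferon-inducible activator PA28 alpha and beta (3), other activators (2) and the inhibitor and core chaperones (5). The last, Psmc3ip, matches by name alone: it encodes a partner of a meiotic recombinase and is no proteasome subunit. It stood at 1.11 to 2.13 CPM.

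The study measured RNA by sequencing in tibialis anterior muscle, which lies along the shin and consists largely of fast fibres, of old C57BL/6 mice, 21 to 24 months of age, in an injury model. The 3 groups received by injection young serum from which extracellular vesicles (EVs, membrane-bound particles released by cells) had been depleted (3 libraries), whole young serum (4 libraries) or saline (4 libraries). Strain, age and muscle were the same in all 3. The labels number the samples but do not say that each came from a separate animal, so that every p-value rests on the spread from library to library, some of which may be technical. Libraries are called by these numbers, for example saline 6.

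The proteasome is the protease that degrades proteins tagged with ubiquitin. Its core particle is a barrel of stacked rings: outer rings of alpha subunits gate the entrance, and inner rings of beta subunits carry the catalytic sites, which belong to Psmb5, Psmb6 and Psmb7. The regulatory particle caps the barrel, binds ubiquitin chains, removes them and unfolds the substrate with a ring of ATPases. Under interferon, cells make Psmb8, Psmb9 and Psmb10, which replace the constitutive catalytic subunits in newly built particles (the immunoproteasome), and the activator PA28, encoded by Psme1 and Psme2; both serve the supply of peptides to MHC class I molecules. Immune cells express the inducible subunits without stimulation. In muscle the ubiquitin-proteasome system is the main route by which contractile proteins are broken down during atrophy and remodelling.

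A set of upstream sequences shows how the constitutive and inducible genes differ in letters. RefSeq promoter windows (250 bases before and 50 after the start, build GRCm38.p6) were found for 41 of the 48 genes, in 44 windows because some genes have several starts. An antioxidant-response-like motif, spelled TGACNNNGC or TGAGNNNGC, lay in 8 of the 12 windows of the constitutive core genes (66.7%), in 5 of 15 windows of the regulatory particle (33.3%) and in 0 of 6 windows of the inducible subunits and PA28. It was present in 27.8% of all 32851 windows in the table and in 31.0% of the windows of the genes tested. The 12 core windows belong to 11 genes, since both starts of Psma6 are counted, each with the motif. The 15 windows of the regulatory particle belong to 14 genes. In Psma5 and Psma7 the motif lay only after the start. Psmb1, Psmb2 and Psmb7 had no window. The box CCAAT lay in 6 of the 12 core windows (50.0%), against 37.4% of all windows and 37.1% of those of the genes tested. The GC box GGGCGG lay in 4 of the 6 inducible windows (66.7%), 5 of the 12 core windows (41.7%) and 10 of the 15 windows of the regulatory particle (66.7%), against 35.7% of all windows and 57.1% of the windows of the genes tested. The 6 inducible windows belong to 5 genes: those of Psme2 overlap, and the same GC boxes are counted in both. An interferon-factor-like motif, spelled as GAAA, any 2 bases and GAAA again, lay in 5 of the 44 windows of the set (11.4%), against 3.44% of all windows and 3.13% of those of the genes tested; only 1 of the 5, that of Psme1, belongs to an inducible gene. All motifs were searched on both strands. A match of letters is a description and not a binding site.

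The stretches before the start of 3 core genes and of Psme2 are printed because they carry, or lack, the motif that differed most in share between the classes. Capitals mark the antioxidant-response-like motif in Psmb5, Psmb6 and Psma6 (in Psma6 on the opposite strand) and the GC box in Psme2 (on the opposite strand). None of the capitals overlaps another searched motif. The windows are chr14:54617996-54618145, minus strand, for Psmb5; chr11:70525207-70525356, plus strand, for Psmb6; chr12:55384042-55384221, plus strand, for Psma6; and chr14:55591102-55591251, minus strand, for Psme2. Each reads 5′ to 3′ on the strand of the gene, and its last base is the one before the RefSeq start.
Psmb5: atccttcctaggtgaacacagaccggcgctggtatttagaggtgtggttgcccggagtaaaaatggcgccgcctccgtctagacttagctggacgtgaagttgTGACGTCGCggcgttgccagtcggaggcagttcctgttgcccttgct
Psmb6: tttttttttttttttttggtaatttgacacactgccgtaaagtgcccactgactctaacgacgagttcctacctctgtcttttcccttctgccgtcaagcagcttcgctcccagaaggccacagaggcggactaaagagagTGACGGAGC
Psma6: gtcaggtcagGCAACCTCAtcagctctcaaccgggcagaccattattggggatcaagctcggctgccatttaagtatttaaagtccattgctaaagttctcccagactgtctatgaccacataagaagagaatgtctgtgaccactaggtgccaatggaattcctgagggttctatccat
Psme2: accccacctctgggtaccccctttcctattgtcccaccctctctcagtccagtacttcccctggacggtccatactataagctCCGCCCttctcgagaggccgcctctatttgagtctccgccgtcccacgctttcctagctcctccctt

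The inducible genes also share positions. On mm10, Psmb8 (chromosome 17, 34197721 to 34201454, plus strand) and Psmb9 (chromosome 17, 34181987 to 34187764, minus strand) are neighbours in the MHC region, and Psme1 (chromosome 14, 55578123 to 55581529, plus strand) lies near Psme2 (chromosome 14, 55587441 to 55591113, minus strand). Psmb10 is on chromosome 8, from 105935735 to 105938444, minus strand.

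Levels between genes were compared per length, as mean CPM over the 11 libraries per kb of the principal GENCODE transcript. The constitutive beta ring was the most abundant class, with a median of 126 CPM per kb and a range from 54.9 in Psmb2 to 180.02 in Psmb7. The alpha ring had a median of 49.4 CPM per kb, from 11.6 in Psma3 to 107 in Psma7; Psma2 and Psma3 are divided by long annotated transcripts (2911 and 2846 bases), which lowers their values. In the regulatory particle the ATPases had a median of 69.5 CPM per kb, from 31.5 in Psmc6 to 115 in Psmc3, and the non-ATPase subunits 64.5, from 26.2 in Psmd14, the deubiquitinase of the lid, to 174 in Psmd8, another lid subunit.

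The inducible beta subunits, the chaperones and the inhibitor lay lower on the same scale. The inducible beta subunits had 3.86 (Psmb9), 5.72 (Psmb8) and 11.9 (Psmb10) CPM per kb. The chaperones of the regulatory particle lay between 3.95 (Psmd5) and 7.57 (Psmd9), and the core chaperones Psmg1 to Psmg4 and the inhibitor Psmf1 between 3.77 (Psmf1) and 18.5 (Psmg2). Most activators lay within the range of the alpha ring: Psme1 stood at 29.0 CPM per kb, the nuclear activator Psme3 at 19.2 and Psme4, the large activator PA200, at 34.9. Psme2 lay below that range, at 5.16, and its intronless copy Psme2b within it, at 23.7.

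**Figure D1:**
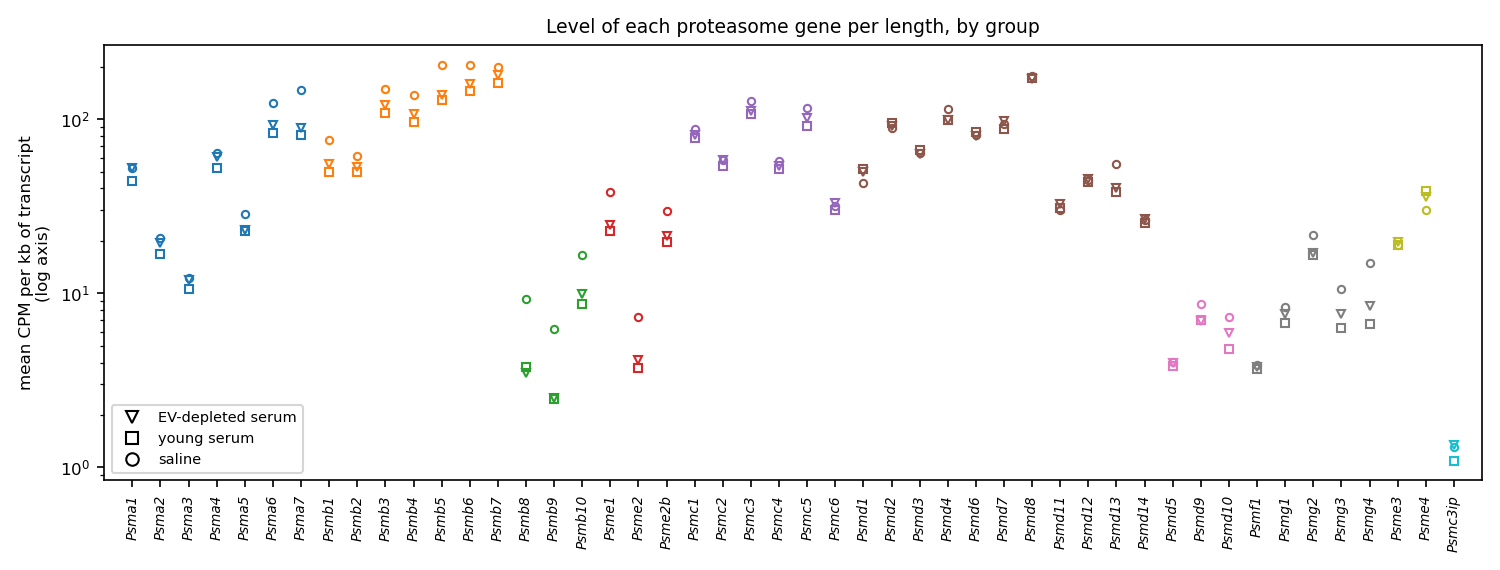
Mean CPM per kb of transcript (log axis) of each of the 48 genes, with a triangle for EV-depleted serum, a square for young serum and a circle for saline (means of 3, 4 and 4 libraries) and colours by class. The constitutive beta ring and most regulatory particle genes lie between 26.2 and 180.02 CPM per kb over all libraries, and Psmb8, Psmb9 and Psmb10 between 3.86 and 11.9.

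Each library held about 36410000 to 42280000 reads, as worked out from the spacing of low CPM values, and summed CPM of 8 fast muscle genes was 160200 to 180500 in EV-depleted serum, 180500 to 201500 in young serum and 164800 to 211800 in saline. Fast muscle was thus present in each, though these genes do not tell the tibialis anterior from other fast muscles. A pair of saline libraries stood apart. Summed CPM of 14 macrophage genes was 117 to 157 in EV-depleted serum, 81.4 to 226 in young serum, and 192, 256, 764 and 390 in saline 2, 3, 4 and 6. Summed CPM of 8 adipocyte genes was 117 to 558 in the other 10 libraries and 6059 in saline 4. That of 8 slow fibre genes was 242 to 2229 in the other 10 libraries and 5545 in saline 6, and that of 5 red cell genes 89.1 to 468 and, in saline 6, 1488. Since this is bulk tissue, fewer cells of a type and less RNA per cell cannot be told apart.

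Libraries also differed by transcript length. Over the 12965 genes tested with a known length, saline 6 deviated from the mean of the 11 libraries by a median of 0.38 on the log2 scale in the shortest of 5 equal length classes (up to 1519 bases) and by -0.52 in the longest (4889 bases or more). Over all genes, the median log2 difference of young serum minus saline was -0.33 in the shortest length class and 0.26 in the longest, and that of EV-depleted serum minus saline -0.24 and 0.21. Of the 48 proteasome genes, 26 belong to the shortest class and 1 (Psme4, 6491 bases) to the longest, with 12, 7 and 2 in the classes between. Of the core genes 11 of 14 are in the shortest length class, of the inducible genes 4 of 5, and of the regulatory particle genes 4 of 17.

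Against saline, all 14 constitutive core genes had a lower mean in both sera. The median log2 difference of the 14 was -0.30 for EV-depleted serum and -0.37 for young serum, that of the 17 regulatory particle genes -0.002 and -0.07, and that of the 5 inducible genes (Psmb8, Psmb9, Psmb10, Psme1 and Psme2) -0.68 and -0.79. The median of all genes tested was -0.002 and -0.02. The 2 comparisons share the saline libraries, so that they are not independent. By limma's test across all genes with Benjamini-Hochberg adjustment at 0.05, 0 of the 48 passed in either comparison, as did 0% of all genes.

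**Figure D2:**
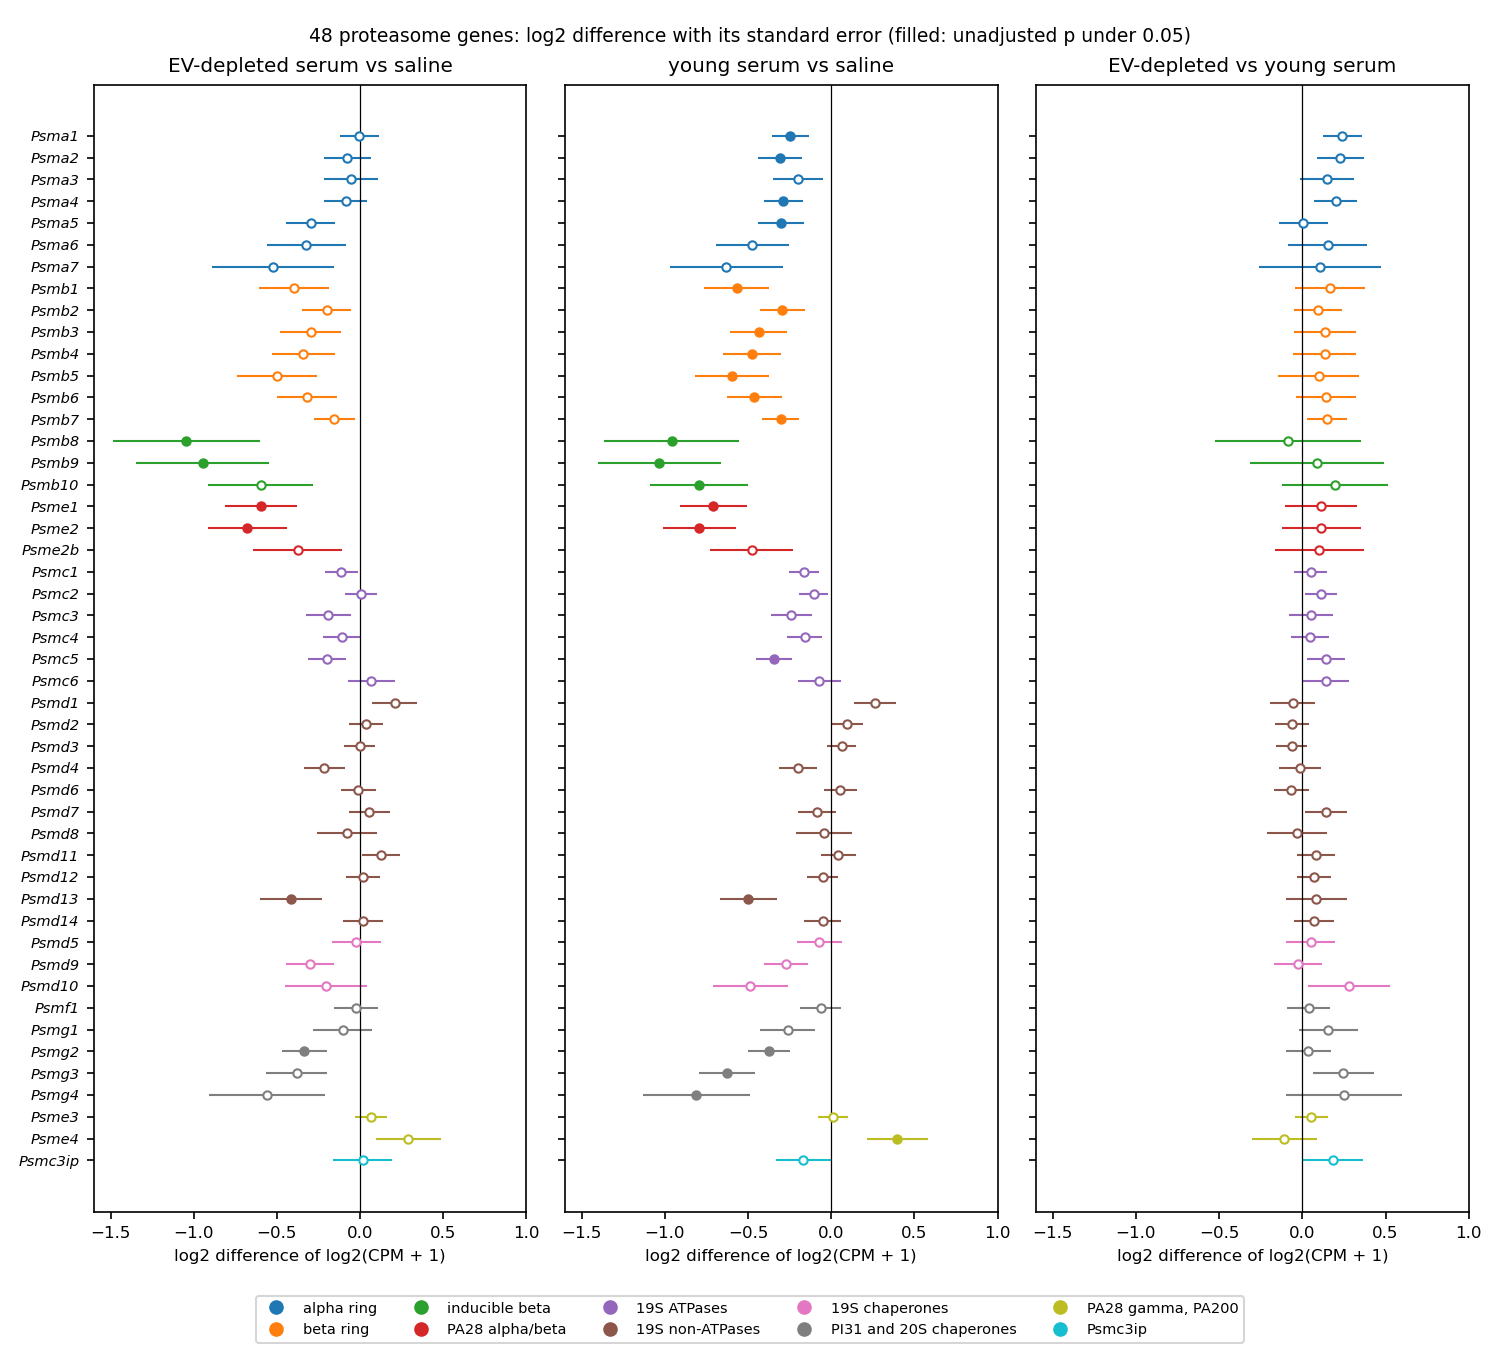
Log2 difference (difference of mean log2(CPM + 1), with the standard error as a bar) of each of the 48 genes for EV-depleted serum minus saline, young serum minus saline and EV-depleted minus young serum, coloured by class and filled where the unadjusted p was under 0.05. Core and inducible genes lie left of 0 in both comparisons with saline and regulatory particle genes lie around 0; filled points number 6, 22 and 0 from left to right.

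Without adjustment, 21 of the 48 genes were lower at p under 0.05 in young serum than in saline (43.8%), against 11.4% of all genes tested, and 1 was higher (2.08%), against 10.5%. In EV-depleted serum 6 were lower than in saline (12.5%), against 5.59% of all genes, and 0 were higher, against 6.49%. The groups did not overlap, with every young serum library below every saline library, for 10 of the 48 genes (20.8%), against 6.08% of all genes, and in the other direction for 0, against 6.09%. For EV-depleted serum and saline this count was 1 (Psme1), against 4.03% of all genes, and 0 in the other direction, against 3.39%.

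The counts at p under 0.05 changed when single libraries were left out, as did those of all genes. In young serum the number at p under 0.05, in either direction, was 22 with all libraries, 13 without young serum 2, 8 without young serum 4 and 11 without saline 6. In EV-depleted serum the number of members was 6 with all libraries, 1 without EV-depleted serum 2, 12 without EV-depleted serum 3, 0 without EV-depleted serum 4, 15 without saline 2, 2 without saline 4 and 3 without saline 6. Of all genes, 5.59% were lower in EV-depleted serum with all libraries, and 3.2%, 5.3% and 3.4% without EV-depleted serum 2, 3 and 4. Without saline 2, 4 and 6 that share was 11.4%, 3.6% and 4.7%.

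Length moved with these counts. In the shortest length class of all genes, 35.6% were lower at p under 0.05 in young serum than in saline and 13.96% in EV-depleted serum. Among the proteasome genes of that class, young serum was lower at p under 0.05 for 9 of 11 core genes, with a median of -0.43, for 4 of 4 inducible genes (-0.79), and for 1 of 4 regulatory particle genes (-0.18), beside the -0.33 of all genes of that class. EV-depleted serum was lower for 0 of 11 core genes (-0.30), 3 of 4 inducible genes (-0.64) and 0 of 4 regulatory particle genes (-0.16), beside -0.24. With the length trend of each library removed, an alternative chosen after seeing the data, 9 of the 48 were lower at p under 0.05 in young serum and 2 higher. Of all 13187 genes, 1114 (8.45%) were lower and 1312 higher in that fit. The median of the core genes was -0.16 (2 of 14 at p under 0.05), of the regulatory particle genes 0.05 and of the inducible genes -0.56 (4 of 5). The same alternative gave -0.10, 0.05 and -0.47 in EV-depleted serum.

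**Figure D3:**
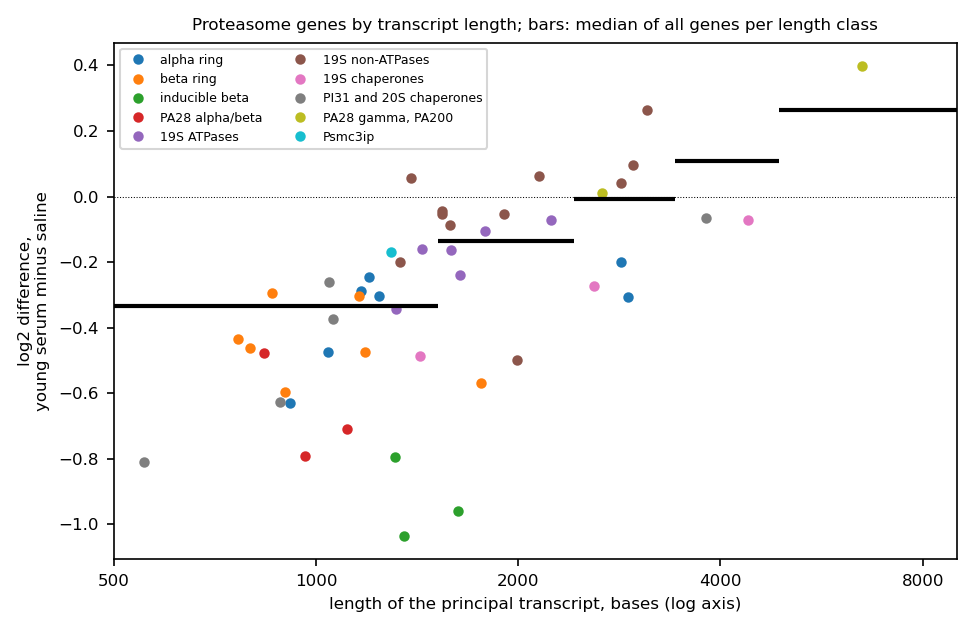
Log2 difference of young serum minus saline against the length of the principal transcript (bases, log axis), 1 point for each of the 48 genes, coloured by class; the black bars are the median of all genes tested in each length class (5 classes of equal size). The bars climb from -0.33 to 0.26, most core genes lie near or below the first bar, and Psmb9 (-1.03) and Psmb8 (-0.96) are the lowest points.

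In the core particle, the beta ring held most of the calls at the unadjusted threshold. Its 7 genes were all lower at p under 0.05 in young serum than in saline, with log2 differences from -0.60 (Psmb5) to -0.29 (Psmb2), and for 6 of them the groups did not overlap. Of all genes tested, 11.4% were lower at that p and 6.08% did not overlap in that direction, and 35.6% were lower in the shortest length class, which holds 6 of the 7. In EV-depleted serum the differences ran from -0.50 (Psmb5) to -0.16 (Psmb7), with 0 of 7 at p under 0.05. The alpha ring had 4 of 7 genes at p under 0.05 in young serum, from -0.63 (Psma7) to -0.20 (Psma3), and 0 of 7 in EV-depleted serum, from -0.52 (Psma7) to -0.01 (Psma1).

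Psmb5, the chymotrypsin-like catalytic subunit (chromosome 14, 54614119 to 54618022, minus strand), had 119, 149.8 and 104 CPM in EV-depleted serum, 131, 99.5, 127 and 104 CPM in young serum, and 141, 149.9, 147 and 297 CPM in saline. The last saline value, that of saline 6, was far above any other, and the young serum values all lay below those of saline. The log2 difference from saline was -0.50 ± 0.24 (SE) for EV-depleted serum (adjusted p = 0.42) and -0.60 ± 0.22 for young serum (adjusted p = 0.19, limma).

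Psmb6, the caspase-like subunit (chromosome 11, 70525367 to 70527858, plus strand), had 119.7, 139 and 121 CPM in EV-depleted serum, 128, 107, 125 and 100.2 in young serum, and 132, 146, 141 and 231 in saline. Psmb7, the trypsin-like subunit (chromosome 2, 38588036 to 38644087, minus strand), had 195, 217 and 209 CPM in EV-depleted serum, 214, 182, 197 and 158 in young serum, and 219.8, 223, 217 and 266 in saline. For both, young serum lay below saline without overlap, EV-depleted serum overlapped with saline, and saline 6 was again the highest library. Against saline, Psmb6 differed by -0.32 ± 0.18 in EV-depleted serum and -0.46 ± 0.17 in young serum (limma, adjusted p = 0.44 and 0.18), and Psmb7 by -0.16 ± 0.12 and -0.30 ± 0.11 (adjusted p = 0.55 and 0.18).

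Saline 6 was the highest of the 11 libraries for 12 of the 14 core genes (85.7%), and young serum 4 the lowest for 10 of them (71.4%). Of all genes tested, saline 6 was the highest for 14.5% and the lowest for 32.5%, and young serum 4 the lowest for 16.1%. In the shortest length class, which holds 11 of the 14, the median deviation over all genes was 0.38 in saline 6 and -0.25 in young serum 4. In Psma7, an alpha ring subunit, EV-depleted serum spanned 69.7 to 104 CPM, young serum 66.6 to 88.6 CPM and saline 82.9 to 87.6 CPM apart from saline 6, which stood at 283 CPM. Without saline 6 the median core difference of young serum minus saline was -0.24, with 5 of 14 genes at p under 0.05, and that of EV-depleted serum -0.11, with 0 of 14. In these fits 8.6% and 4.7% of all genes were lower at p under 0.05. Without saline 4 and saline 6 together, chosen after seeing the data, the medians were -0.21 (1 of 14) and -0.08 (0 of 14). Of all genes, 3.5% and 2.2% were then lower at p under 0.05.

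**Figure D4:**
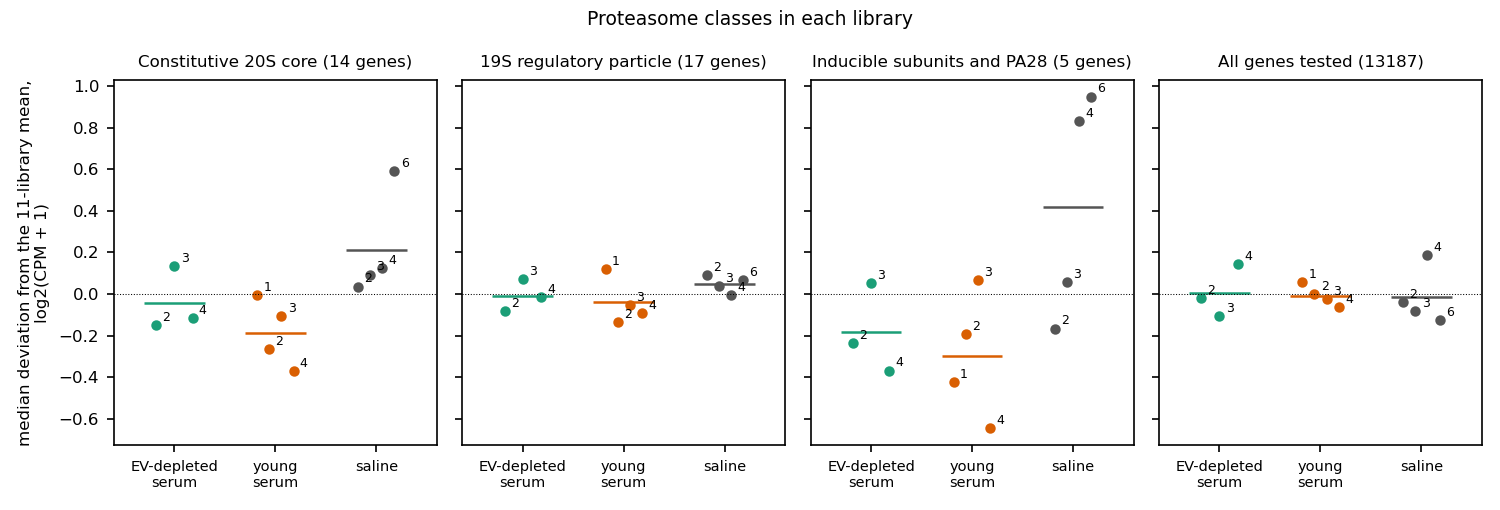
Median deviation of each class from the mean of the 11 libraries, on the log2(CPM + 1) scale, 1 numbered point for each library and a line at the mean of each group, for the 14 core, 17 regulatory particle and 5 inducible genes and for all 13187 genes tested. Saline 6 stands at 0.59 in the core class, saline 4 and saline 6 at 0.83 and 0.95 in the inducible class, and the regulatory particle stays between -0.14 and 0.12 in all libraries.

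By class median, the inducible genes had the largest differences from saline and the largest spread within saline. Psmb8, the replacement of Psmb5, had 5.05, 7.39 and 4.58 CPM in EV-depleted serum, 6.13, 7.55, 7.49 and 3.55 CPM in young serum, and 6.55, 7.23, 31.1 and 15.9 CPM in saline. Saline 2 and saline 3 lay within the range of both sera, and saline 4 and saline 6 far above it. The log2 difference from saline was -1.04 ± 0.44 for EV-depleted serum (adjusted p = 0.40) and -0.96 ± 0.41 for young serum (adjusted p = 0.21, limma).

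Psmb9, which replaces Psmb6, had 3.11, 3.87 and 3.22 CPM in EV-depleted serum, 2.75, 4.10, 5.02 and 1.52 in young serum, and 3.85, 4.67, 14.2 and 11.2 in saline. Psmb10, which replaces Psmb7, had 12.5, 15.1 and 11.3 CPM in EV-depleted serum, 9.37, 12.2, 15.1 and 8.81 in young serum, and 11.8, 14.6, 26.3 and 34.6 in saline. Both resembled Psmb8, with saline 4 and saline 6 high, the other saline libraries among the sera and young serum 4 the lowest. Against saline, Psmb9 differed by -0.95 ± 0.40 in EV-depleted serum and -1.03 ± 0.37 in young serum (limma, adjusted p = 0.41 and 0.18), and Psmb10 by -0.60 ± 0.32 and -0.79 ± 0.29 (adjusted p = 0.43 and 0.18).

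**Figure D5:**
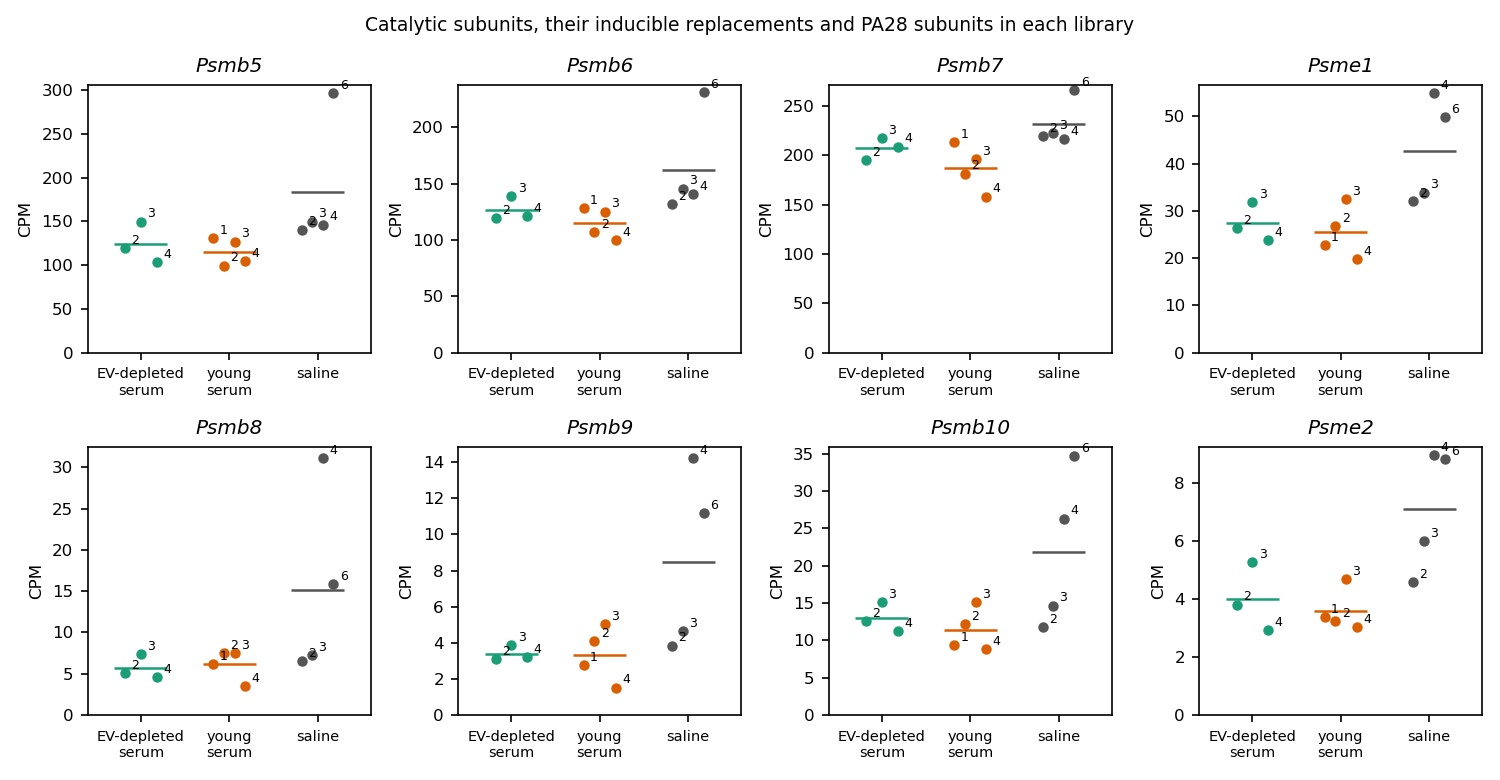
CPM of the constitutive catalytic subunits (Psmb5, Psmb6, Psmb7), their inducible replacements below them (Psmb8, Psmb9, Psmb10) and the PA28 subunits (Psme1, Psme2), 1 numbered point for each library with a line at the group mean; axes start at 0. Saline 6 alone stands high for the constitutive subunits (297 CPM in Psmb5), saline 4 and saline 6 for the inducible ones (31.1 and 15.9 CPM in Psmb8).

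The PA28 subunits followed the inducible beta subunits. Psme1, PA28 alpha, had 26.4, 31.9 and 23.8 CPM in EV-depleted serum, 22.7, 26.9, 32.5 and 19.8 in young serum, and 32.0, 33.9, 55.0 and 49.9 in saline. Every EV-depleted serum library lay below every saline library, though only just (31.95 in EV-depleted serum 3, 32.01 in saline 2), and young serum 3 overlapped with saline. The log2 difference from saline was -0.60 ± 0.22 for EV-depleted serum (adjusted p = 0.40) and -0.71 ± 0.20 for young serum (adjusted p = 0.18, limma).

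Psme2, PA28 beta, had 3.798, 5.27 and 2.93 CPM in EV-depleted serum, 3.37, 3.22, 4.67 and 3.03 in young serum, and 4.57, 5.99, 8.93 and 8.80 in saline. Reads of Psme2 and of its near-identical intronless copy Psme2b (chromosome 11, 48945354 to 48946190, minus strand) may be shared between the 2 rows, so that either level is uncertain; Psme2b had the higher level, 16.1 to 19.9 CPM in EV-depleted serum, 13.1 to 18.7 in young serum and 14.8 to 33.8 in saline. The sum of the 2 rows was 19.9 to 25.1 CPM in EV-depleted serum, 16.1 to 23.4 in young serum and 19.4, 23.2, 42.8 and 42.0 in saline, again with saline 4 and saline 6 high. Psme2 differed from saline by -0.68 ± 0.24 in EV-depleted serum (adjusted p = 0.40) and by -0.79 ± 0.22 in young serum (adjusted p = 0.18, limma).

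The share of inducible over constitutive subunits also set saline 4 apart. Per length, Psmb8 was 2.34% to 2.73% of Psmb5 in EV-depleted serum, 1.88% to 4.19% in young serum, and 2.57%, 2.66%, 11.7% and 2.95% in saline. Psmb9 was 1.53% to 1.64% of Psmb6 in EV-depleted serum, 0.893% to 2.36% in young serum, and 1.72%, 1.89%, 5.97% and 2.85% in saline. Saline 6, high in both numerator and denominator, was near the other libraries in the first of these shares, while Psmb10 over Psmb7 was 4.78% to 6.14% in EV-depleted serum, 3.88% to 6.78% in young serum, and 4.76%, 5.82%, 10.7% and 11.5% in saline 2, 3, 4 and 6.

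Macrophage markers moved with the inducible genes, and their part in the result was not tested. All 12 macrophage genes that passed the filter, of 14 listed, had a lower mean in both sera than in saline, with a median log2 difference of -1.01 in EV-depleted serum and -0.83 in young serum. In each comparison 7 of the 12 (58.3%) were at p under 0.05, against 5.59% of all genes lower in EV-depleted serum and 11.4% in young serum. Every EV-depleted serum library lay below every saline library for 7 of the 12, against 4.03% of all genes. For young serum this count was 0, against 6.08%. Summed CPM of the lymphocyte list, of which 3 of 12 genes passed the filter, was 125 to 148 in EV-depleted serum, 141 to 188 in young serum, and 357, 375, 633 and 255 in saline 2, 3, 4 and 6. Most of this sum was Ighm, with 350, 363, 326 and 189 CPM in saline 2, 3, 4 and 6. Every other lymphocyte gene with a row was highest in saline 4 and next highest in saline 6. Igkc, for example, had 3.88, 9.32, 168 and 37.7 CPM in saline 2, 3, 4 and 6, and Cd3e 1.91, 1.47, 8.24 and 2.89. Many of these genes were near or below 1 CPM in the other libraries. Without saline 4 and saline 6 the median of the inducible genes was -0.26 in EV-depleted serum and -0.35 in young serum, with 0 of 5 at p under 0.05 in each. Of all genes, 2.2% and 3.5% were lower at p under 0.05 in these fits.

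Genes that work with the immunoproteasome in peptide supply to MHC class I were listed beside it. Of 15, 4 were lower at p under 0.05 in EV-depleted serum than in saline and 5 in young serum, with medians of -0.43 and -0.32; 0 were higher. These are 26.7% and 33.3% of the list, against 5.59% and 11.4% of all genes tested. Tap1, a subunit of the peptide transporter, whose gene lies next to Psmb9, had 3.79, 6.07 and 2.87 CPM in EV-depleted serum, 3.39, 5.54, 6.95 and 3.03 in young serum, and 4.76, 5.67, 19.9 and 10.7 in saline. B2m, the light chain of class I molecules, averaged 78.1 ± 7.57 CPM in EV-depleted serum, 83.0 ± 25.2 in young serum and 149 ± 91.5 in saline (SD), with 284 CPM in saline 4. The interferon-induced factor Irf1 averaged 6.90 ± 0.470, 7.64 ± 1.90 and 12.2 ± 5.40 CPM in the same order of groups. H2-D1 and H2-K1, class I heavy chains, averaged 111 and 102 CPM in EV-depleted serum, 127 and 115 in young serum, and 277 and 238 in saline, and Tap2, the partner of Tap1, 14.1, 12.6 and 23.3 CPM in that order of groups. The high value of saline 4 recurred in Tap1, B2m and Irf1 as in Psmb8 and Psmb9. It also recurred in H2-D1 (590 CPM), H2-K1 (501 CPM) and Tap2 (43.65 CPM), and raised their saline means. Of the 15 genes, 1 had a higher mean than saline in EV-depleted serum and 2 in young serum.

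The regulatory particle as a whole showed no common direction against saline. Of its 17 genes, 9 had a lower and 8 a higher mean in EV-depleted serum, and 12 a lower and 5 a higher mean in young serum. At p under 0.05 there were 1 and 2, all lower. These are 5.88% and 11.8%, near the 5.59% and 11.4% of all genes tested. Of the 6 ATPases, EV-depleted serum had a lower mean than saline for 4 (median of the 6, -0.11) and young serum for all 6 (-0.16). Of the 11 non-ATPase subunits, EV-depleted serum had a lower mean for 5 (median 0.02) and young serum for 6 (-0.04). Within saline its genes also varied least, with a median SD of 0.11 on the log2 scale against 0.29 for the core and 0.69 for the inducible genes; for all genes tested the median SD was 0.30.

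Psmc5, an ATPase of the base, had 127, 150.4 and 123 CPM in EV-depleted serum, 134, 111, 131 and 108 in young serum, and 144, 154, 160.4 and 154 in saline. Young serum lay below saline without overlap, at -0.34 ± 0.11 (adjusted p = 0.18), and EV-depleted serum differed by -0.20 ± 0.11 (limma, adjusted p = 0.44). Psmc5 is the ATPase with the shortest transcript, 1316 bases.

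Psmd13, a lid subunit, was the other gene of the particle at p under 0.05, with 81.5, 91.2 and 68.3 CPM in EV-depleted serum, 82.4, 69.4, 80.3 and 69.7 in young serum, and 92.3, 89.1, 101 and 156 in saline. Saline 6 was far above the rest, and the young serum values lay below all of saline. Its differences from saline were -0.41 ± 0.19 in EV-depleted serum and -0.50 ± 0.17 in young serum (limma, adjusted p = 0.41 and 0.18).

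Psmd1, a large scaffold subunit of the base with a transcript of 3112 bases, had 142, 143 and 179 CPM in EV-depleted serum, 174, 154, 147 and 167 in young serum, and 156, 120.5, 145 and 115 in saline. Saline 6 was here the lowest library and the groups overlapped, with differences of 0.21 ± 0.14 and 0.26 ± 0.13 (limma, adjusted p = 0.49 and 0.24). Psmd2, the other large scaffold, averaged 270.0 ± 18.8, 282 ± 20.5 and 263 ± 19.2 CPM in EV-depleted serum, young serum and saline (SD), Psmd3 136 ± 5.37, 142 ± 6.34 and 137 ± 9.71, and Psmd11 93.2 ± 4.83, 88.2 ± 7.17 and 85.9 ± 9.71. The libraries of the 3 groups overlapped for each of these genes, and none passed the adjusted threshold in any comparison (limma).

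The other activators carry long transcripts. Psme4, PA200, a nuclear activator, had 223, 216 and 261 CPM in EV-depleted serum, 281, 245, 212 and 272 in young serum, and 257, 181, 212 and 132 in saline. Saline 6 was the lowest and the groups overlapped. It was the only one of the 48 at an unadjusted p under 0.05 in the higher direction, at 0.40 ± 0.18 in young serum (adjusted p = 0.23), with 0.29 ± 0.20 in EV-depleted serum (limma, adjusted p = 0.50), beside 0.26 and 0.21 as the medians of all genes in its length class. Psme3 averaged 52.7 ± 1.90, 50.7 ± 2.49 and 50.4 ± 3.76 CPM in EV-depleted serum, young serum and saline (SD), with overlapping libraries.

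Chaperones and the inhibitor had lower means than saline in both sera in 8 of 8 cases. Of all 13187 genes tested, 6640 had a lower mean in EV-depleted serum and 6926 in young serum. Psmd10 and Psmg1 to Psmg4 belong to the shortest length class, where the median of all genes was -0.24 and -0.33. Psmg3, a chaperone of alpha ring assembly, had 6.58, 6.90 and 6.77 CPM in EV-depleted serum, 6.08, 5.79, 4.97 and 5.34 in young serum, and 6.54, 8.71, 9.18 and 12.9 in saline. Young serum lay below both other groups without overlap. It had the smallest p of the 48 in young serum against saline, at -0.63 ± 0.17 (adjusted p = 0.18), and differed by -0.38 ± 0.18 in EV-depleted serum (limma, adjusted p = 0.42).

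Psmg2, partner of Psmg1 in the same assembly step, had 16.5, 20.5 and 16.9 CPM in EV-depleted serum, 17.5, 16.8, 19.6 and 16.0 in young serum, and 19.3, 25.8, 24.0 and 22.9 in saline. Only saline 2 came within the range of the sera. The differences were -0.34 ± 0.14 and -0.37 ± 0.13 (limma, adjusted p = 0.40 and 0.18). Psmg4, with the shortest transcript of the set (555 bases), stood at 3.48 to 6.54 CPM in the other 10 libraries and at 16.7 CPM in saline 6, with differences from saline of -0.56 ± 0.35 in EV-depleted serum and -0.81 ± 0.32 in young serum. Of the remaining 5, Psmd5, Psmd9, Psmd10, Psmf1 and Psmg1, 0 were at p under 0.05 in either comparison, with differences from -0.49 (Psmd10, young serum) to -0.02 (Psmd5, EV-depleted serum).

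Other genes of the pathway, from a list of 27 of which 24 passed the filter, were split in direction, with 10 lower and 14 higher means in EV-depleted serum and 9 lower and 15 higher in young serum. In EV-depleted serum 1 was lower and 2 higher than in saline at p under 0.05, and in young serum 3 lower and 6 higher, with 0 past adjustment. The lower counts, 4.17% and 12.5% of the list, stand beside 5.59% and 11.4% of all genes, and the higher ones, 8.33% and 25.0%, beside 6.49% and 10.5%. Pomp, the maturation factor that builds the core with Psmg1 to Psmg4, had 78.1, 82.9 and 67.9 CPM in EV-depleted serum, 76.7, 63.3, 77.9 and 63.5 in young serum, and 90.8, 94.4, 97.1 and 112 in saline. Both sera lay below saline without overlap, at -0.36 ± 0.12 (adjusted p = 0.40) and -0.48 ± 0.11 (adjusted p = 0.18, limma).

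Nfe2l1, a transcription factor known to raise proteasome genes when proteasome activity is low, had 1086, 878 and 1040 CPM in EV-depleted serum, 951, 821, 843 and 792 in young serum, and 828, 581, 653 and 627 in saline. EV-depleted serum lay above saline without overlap, and saline 2 fell among the young serum values. The differences were 0.58 ± 0.14 (adjusted p = 0.30) and 0.35 ± 0.13 (adjusted p = 0.18, limma). Nfe2l2, the related factor of the antioxidant response, averaged 28.9, 27.2 and 25.1 CPM in EV-depleted serum, young serum and saline, with 0.20 and 0.12 against saline (limma, adjusted p = 0.50 and 0.58).

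Ubr4, a ubiquitin ligase, averaged 182, 220 and 148 CPM in the same order, at 0.30 and 0.60 against saline (limma, adjusted p = 0.51 and 0.18), and Sem1, a small lid subunit not named by the rule, 57.1, 48.6 and 66.0 CPM, at -0.21 and -0.43 (limma, adjusted p = 0.50 and 0.18). Among 11 measured ligases and regulators of muscle protein breakdown, 0 were lower and 1 higher (Fbxo30, 0.50) at p under 0.05 in EV-depleted serum, and 1 lower (Stub1, -0.35) and 1 higher (Fbxo32, 0.61) in young serum. Each count of 1 is 9.09% of the list. Of all genes, 6.49% were higher in EV-depleted serum, and 11.4% lower and 10.5% higher in young serum. Fbxo32, the atrophy ligase atrogin, averaged 420, 442 and 291 CPM in EV-depleted serum, young serum and saline. This is the opposite direction to the core genes, all of which had lower means in both sera. Saline 6 was the lowest library for Fbxo32 (196 CPM) and Ubr4 (99.5 CPM), and the highest for Sem1 (72.9 CPM) and Pomp (112 CPM). The part of transcript length in these differences was not tested.

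Between EV-depleted and whole young serum, which tests what removing EVs alters, 0 of the 48 passed adjustment, as did 0% of all genes, and 0 were at p under 0.05 in either direction, against 0.478% of all genes lower and 1.75% higher (limma). All 14 core genes had a higher mean in EV-depleted serum, with a median log2 difference of 0.14, against 0.05 for the regulatory particle, 0.11 for the inducible genes, 0.08 for all genes of the shortest length class and 0.005 for all genes. The groups did not overlap for 2 genes, both higher, against 4.16% of all genes, and for 0 lower, against 1.96%. They were Psma1 and Psmg3.

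Psma1, an alpha ring subunit, had 59.2, 63.1 and 65.6 CPM in EV-depleted serum, 58.4, 51.8, 54.5 and 47.3 in young serum and 64.05, 53.9, 70.3 and 64.1 in saline. The EV-depleted values lay just above those of young serum and within those of saline, at 0.24 ± 0.12 against young serum (adjusted p = 1, limma). Psma2 and Psma4, of the same ring, followed at 0.23 ± 0.14 and 0.20 ± 0.13, with overlap. Psmg3 differed by 0.25 ± 0.18 (limma, adjusted p = 1).

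In the other direction the smallest p-values belonged to Psmd3 (-0.06 ± 0.09), Psmd6 (-0.07 ± 0.10), Psmd2 (-0.06 ± 0.10) and Psme4 (-0.11 ± 0.20), all within 1 SE of 0. For the inducible genes the differences were -0.08 ± 0.44 (Psmb8), 0.09 ± 0.40 (Psmb9), 0.20 ± 0.32 (Psmb10), 0.11 ± 0.22 (Psme1) and 0.12 ± 0.24 (Psme2). A p above the threshold is no sign of equal effects of the sera.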

How the data were processed

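RNA was sequenced from 11 tibialis anterior libraries. The deposited CPM values were scaled by the authors to 1000000 per library over 18269 genes, with an offset of 0.0001, as read from the values. Per the submitters' processing notes, FastQC, STAR, DESeq2 and mm10 were used, with no versions; counting tool and strand handling are not given in the sources used here. Of low values (0.01 to 1 CPM), 75.4% to 78.8% were whole multiples of 1 read within 0.1 reads, too few to recover counts, so no count model was fitted. The deposited TPM table, in which the authors divided by genomic span (total 288820), served for coordinates, whose starts, and ends minus 1, matched GENCODE M21 for all 48 members.

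Genes with at least 1 CPM in 3 libraries were analysed as log2(CPM + 1), which understates fold changes of low genes; 13187 were tested and 5082 removed. Tests came from 1 linear model of the 11 libraries with 3 group means (limma 3.58.1, R 4.3.3; eBayes with a variance trend, two-sided, Benjamini-Hochberg at 0.05). The script was tested on simulated data. Class medians, counts, length classes and motif searches used pandas 2.3.3 in Python 3.11.15, and figures matplotlib 3.10.9. Promoter sequences are from RefSeq; in 40 of 44 member windows the bases after the start were found in a transcript of the gene.

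Named with every library's value were Psmb5 to Psmb10, Psme1, Psme2 and, per comparison, the 4 members with the smallest unadjusted p in each direction (some by mean and SD), with 7 set pathway genes, of which 1 is not reported here, and the 2 of smallest p per pathway list; Psmd13, Psma7, Psmg4 and Ubr4 were added for their values. Members and lists were chosen with earlier results of these data known. Alternatives were other pseudocounts, filters, scaling, a replicate block, no variance trend, array weights, fits of 2 groups, and leaving out each library. The numbers were not used to pair samples: no label ties them to a shared animal or batch, and 4 of 9 same-numbered pairs, not all, had correlated deviations (over 0.1). The precision of each value is limited by 3 or 4 libraries per group.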

Additional observations from a re-analysis of the deposited data

Results flagged for a closer look

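In 13 of the 96 groups of 4 libraries examined (saline and young serum, 48 genes each), 1 library lay so far from the rest that its gap to the nearest library took up more of the group's range than Dixon's 95% limit allows. Chance flags about 1 in 20 groups if these are independent, which genes measured in the same libraries are not. The rule was not applied to the other genes, so no share over all genes stands beside this count. Over all genes, saline 6 also deviated by transcript length, from 0.38 in the shortest length class to -0.52 in the longest. Saline 6 was the high library in 8, given here with the range of the remaining saline libraries in brackets: Psma6 at 216 CPM (95.5 to 105), Psma7 at 282.6 (82.9 to 87.6), Psmb1 at 205.1 (105 to 117), Psmb4 at 228.2 (136 to 145), Psmb5 at 296.6 (141 to 149.9), Psmb6 at 231.3 (132 to 146), Psmb7 at 266.5 (217 to 223) and the lid subunit Psmd13 at 156.4 (89.1 to 101). All but Psmd13 are core genes.

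Young serum 1 was the high library in 4, all of the regulatory particle or its chaperones: Psmd10 at 8.332 CPM (6.13 to 6.48 in the other young serum libraries), Psmd14 at 45.29 (36.8 to 37.9), Psmd5 at 20.46 (15.4 to 15.9) and Psmd6 at 130.6 (110.2 to 113). Saline 3 was the low library for Psmd14, at 34.42 CPM (42.2 to 43.4 for the remaining 3).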

How the results depend on the processing

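Of 772 values of single named genes under the alternatives, 749 kept their direction and side of the threshold, 13 passed the adjusted threshold and 10 changed sign. Array weights, whose estimate did not converge, called 1794 genes and 2 members (EV-depleted serum against saline), 3441 and 14 (young serum against saline) and 24 and 0 (EV-depleted against young serum), gave 12 and 2 members at unadjusted p under 0.05 in the first and the last, and a first median for the regulatory particle of -0.0871. The replicate block, which in effect leaves out saline 6 and young serum 1 because no other library has their number, called 6 genes in EV-depleted serum against saline and left 1 member at p under 0.05, and 2 in EV-depleted against young serum; of 9 same-numbered pairs 4 correlated over 0.1 (-0.277 to 0.3), and in 7 of 18 cases a library correlated best with its own number in another group. With only the 2 groups compared in the fit, 3 members (EV-depleted serum against saline) and 1 (EV-depleted against young serum) were at p under 0.05. A filter of 5 CPM called 3 genes in EV-depleted serum against saline.

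Added after seeing the data, leaving out saline 4 and saline 6 called 2 genes and left 0 members at p under 0.05 in EV-depleted serum, with a core median of -0.0849, and left 3 in young serum, with an inducible median of -0.3459. With the length trend removed, 11 members were at p under 0.05 in young serum and the regulatory particle median was 0.0514. Leaving out each library gave 0 to 15 members at p under 0.05 in EV-depleted serum against saline (0 without EV-depleted serum 4, 15 without saline 2), with 0 to 5 genes called, 8 to 26 in young serum against saline (8 without young serum 4, 26 without saline 2, 11 without saline 6), with 0 to 251 genes and 0 to 2 members called (both without saline 2), and 0 to 2 in EV-depleted against young serum. The members called without saline 2 were Psme2 and Psmg3.

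Sign changes were Psmb7 at 0.0268 (length trend removed, EV-depleted serum against saline), Psmd3 at -0.0034 (replicate block, young serum against saline) and, in EV-depleted against young serum, Psmb9 at -0.0283 (array weights) and, when leaving out single libraries, Psmb5 (-0.0446 to 0.2174), Psme1 (-0.0001 to 0.2335), Psme2 (-0.0611 to 0.2749), Psmb8 (-0.2896 to 0.0328) and Psmb9 (-0.1495 to 0.2696). The cause was not tested.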
